A study of Mus musculus with 9 samples.

Results

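The regions described here are the 5hmC peaks that were called in both Tet2 knockout (KO) and wild-type (WT) macrophages, 942 of the 9151 peaks listed in the study's peak count tables. A peak belongs to them if its name carries a call from the merged KO libraries and a call from the merged WT libraries and if it lies on chromosomes 1 to 19 or X. A further 14 peaks called in both genotypes were left out, 12 on unplaced contigs, 1 on a knock-in sequence and 1 on chromosome Y. On the same chromosomes, 1109 peaks were called only in KO and 7042 only in WT, so the shared peaks were 10.4% of the 9093 listed there. Of the 942, 941 joined 1 KO call and 1 WT call and 1 joined 3 calls. The calls came from the same counts that are compared between genotypes below, so the members were chosen on those counts, and their 5hmC differences are given as a description. Place, nearby genes and RNA were not used to choose them.

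5-hydroxymethylcytosine (5hmC) is made when TET enzymes oxidise 5-methylcytosine, mostly at CpG dinucleotides. TET2 is the TET enzyme most often lost by mutation in blood cells. In many tissues 5hmC is found in the bodies of transcribed genes and at enhancers and is low at active CpG-island promoters. A peak in such data is a stretch where captured DNA piles up, so it reports relative enrichment and not the share of cytosines modified.

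The study measured 5hmC and RNA in mouse macrophages of genotype Tet2 Knockout or wild type, all treated with M-CSF, the growth factor that maintains macrophages, and all at passage 0. There were 2 KO and 2 WT libraries of DNA captured through biotin-tagged 5hmC, and 2 KO and 3 WT libraries of ribosomal-RNA-depleted RNA. The labels do not say whether the samples of a genotype came from separate animals, so the spread between them may be technical. The labels also give no strain, age, sex, tissue of origin or design of the knockout allele. Tet2 RNA stood at 232 and 126 CPM (counts per 1000000) in the KO libraries and at 86.2, 144 and 41.6 CPM in the WT libraries, with overlap between the groups, and the files do not show which exons were counted. A feature of a knock-in sequence had 1452 and 2245 counts in the KO RNA libraries and 0 in all 3 WT libraries, which separates the labelled genotypes. A second knock-in feature, with 1 and 3 counts in KO and 0, 6 and 3 in WT, does not separate them. Summed over 20 macrophage identity genes, RNA levels ranged from 17636 to 25037 CPM over the 5 libraries, with 19 of the 20 at or above a mean of 1 CPM. The summed level of 14 stromal and osteoblast markers was 460 and 1409 CPM in KO and 353, 1326 and 12176 CPM in WT, the highest value being in WT replicate 3.

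Before the values, the sequences of some promoters under shared peaks are given, because promoters are where a 5hmC peak touches a defined regulatory stretch and few of the shared peaks did so. The 250 bases before a RefSeq gene start were overlapped by 11 shared peaks. The sequences below are the overlapped part of that window, 5′ to 3′ on the gene's strand, from RefSeq on GRCm38.p6, with each CpG, the dinucleotide in which 5hmC mostly lies, in capitals. Given are the 4 genes other than predicted ones with the longest overlapped stretch: Fblim1, which encodes a filamin-binding adaptor of cell-matrix adhesions (chr4:141606053-141606302, minus strand), Arap1, a GTPase-activating protein (chr7:101385276-101385525, plus strand), Nt5c2, a cytosolic nucleotidase (chr19:46969569-46969818, minus strand), and Mexis, a macrophage long non-coding RNA (chr4:53270233-53270459, minus strand).
Fblim1: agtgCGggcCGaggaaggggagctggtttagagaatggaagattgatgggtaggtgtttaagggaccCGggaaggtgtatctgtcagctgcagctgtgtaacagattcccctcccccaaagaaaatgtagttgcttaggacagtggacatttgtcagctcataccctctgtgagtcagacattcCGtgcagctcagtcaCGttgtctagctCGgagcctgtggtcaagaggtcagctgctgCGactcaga
Arap1: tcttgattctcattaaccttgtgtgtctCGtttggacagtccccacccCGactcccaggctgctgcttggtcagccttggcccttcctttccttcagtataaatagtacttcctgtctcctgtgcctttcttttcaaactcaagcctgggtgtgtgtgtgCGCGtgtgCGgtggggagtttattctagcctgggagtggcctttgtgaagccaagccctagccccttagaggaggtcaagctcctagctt
Nt5c2: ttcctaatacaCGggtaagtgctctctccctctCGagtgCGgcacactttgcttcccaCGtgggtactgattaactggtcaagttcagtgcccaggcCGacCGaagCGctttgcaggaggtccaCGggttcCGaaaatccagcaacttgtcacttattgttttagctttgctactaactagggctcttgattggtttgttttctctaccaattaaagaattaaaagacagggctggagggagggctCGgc
Mexis: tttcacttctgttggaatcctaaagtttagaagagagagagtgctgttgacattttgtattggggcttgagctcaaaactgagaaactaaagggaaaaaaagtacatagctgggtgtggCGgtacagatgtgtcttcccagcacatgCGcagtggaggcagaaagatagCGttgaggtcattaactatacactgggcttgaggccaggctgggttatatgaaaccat
The remaining named gene, Celf3, had only 72 bases overlapped, with 0 CpGs. The printed stretches hold 7 CpGs for Fblim1, 5 for Arap1, 10 for Nt5c2 and 3 for Mexis. The Fblim1 peak had 15 and 16 counts in the KO libraries and 15 and 76 in WT. For Arap1 the counts were 7 and 6 against 3 and 45, for Nt5c2 15 and 12 against 7 and 49, and for Mexis 5 and 5 against 7 and 35. WT replicate 2 had the highest count at each of them and also the most counts of all libraries.

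Over the 11 promoter windows the median was 4 CpGs, with a range of 1 to 13, against a median of 6 over all 32851 RefSeq promoters of the same length. Windows with 10 or more CpGs were 2 of the 11 (18.2%), 5 of 82 (6.10%) under WT-only peaks, 0 of 6 under KO-only peaks and 37.8% of all promoters. The RUNX core motif, searched on both strands as TGTGGT or TGCGGT, was in 2 of the 11 windows (Fblim1 and Arap1), against 18.6% of all promoters. A match says only that those letters are present. Another shared peak, at chr4:135416248-135416697, covered the microRNA gene Mir700, with 6 and 6 counts in KO and 8 and 33 in WT. Its mature forms are given with the seed, bases 2 to 8, in capitals, to show what the peak overlies.
mmu-miR-700-3p: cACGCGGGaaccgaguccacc
mmu-miR-700-5p: uAAGGCUCcuuccugugcuugc
The DNA of the 3p form holds 3 CpGs and that of the 5p form none.

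The 4 libraries differed in depth, which sets how well each shared peak was measured. Counts summed over all listed peaks were 46230 and 42489 in KO and 42678 and 219116 in WT, so WT replicate 2 held most of the WT counts. A shared peak had a median of 8 and 7 counts in the KO libraries and 6 and 30 in the WT libraries. In the KO libraries 650 and 704 of the 942 peaks had fewer than 10 counts, and in WT replicate 1 780 had fewer than 10. In WT replicate 2 none did, and 10 was its lowest count. WT replicate 1 had 0 counts at 9 shared peaks. Counts in the other libraries ranged from 1 to 1328 and from 1 to 1204 in KO, and the highest counts in WT were 734 and 920. Below, a level is a peak's counts per 100000 counts in listed peaks of the same library. Total sequencing depth is not known here, so a level is relative to the other listed peaks.

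The KO libraries differed from each other by less than the sampling noise. Over the 842 shared peaks with at least 10 counts in the pair, chi-square per degree of freedom was 0.526, and over 2544 listed peaks it was 0.575. They may therefore be 1 library in 2 parts, and were counted as 1 sample in the fits, with the mean of their counts. The WT libraries differed by more than counting noise, with chi-square per degree of freedom of 2.55 over the 942 shared peaks and 1.20 over 8647 listed peaks. Across the shared peaks the Spearman correlation of levels was 0.61 between the KO libraries, 0.65 between the WT libraries and 0.36 to 0.47 between a KO and a WT library. The points share the peaks' widths and each library's depth.

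Shared peaks held a larger share of the KO counts than of the WT counts. They took 32.7% of the listed-peak counts in both KO libraries (95% Wilson intervals 32.2 to 33.1% in both), 19.4% in WT replicate 1 (19.03 to 19.78%) and 16.2% in WT replicate 2 (16.1 to 16.4%). The intervals cover counting error only. Both KO values lay above both WT values, by 14.9 percentage points between the group means. The exact permutation p was 0.33, two-sided, which is the smallest that 2 libraries against 2 allow. With KO as 1 sample the permutation p was also 0.33, the smallest that its 3 arrangements allow. The members were chosen on these same counts, so nothing is read from either p. WT-only peaks took 40.9% and 41.0% of the KO counts and 73.5% and 77.8% of the WT counts. KO-only peaks took 18.8% and 18.7% against 5.35% and 4.98%.

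**Figure D1:**
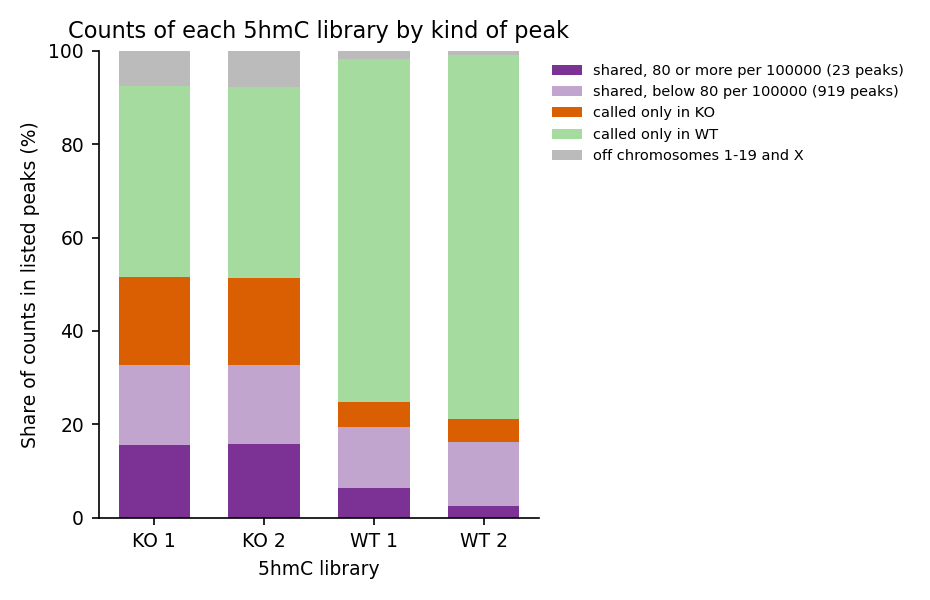
Stacked bars show the share (%) of each 5hmC library's listed-peak counts in shared peaks at or above 80 per 100000, in other shared peaks, in KO-only and WT-only peaks, and off chromosomes 1 to 19 and X. The 23 highest shared peaks take 15.6% and 15.7% of the KO counts and 6.31% and 2.45% of the WT counts, while the other 919 take 13.1 to 17.1%.

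A few peaks carried much of that share. The levels had a gap between 76.3 and 99.7 per 100000, averaged over the 4 libraries, and 23 shared peaks lay above it (the threshold of 80 was chosen after the values were seen). These 23 held 47.7% and 48.2% of the shared-peak counts in KO and 32.5% and 15.1% in WT. The 2 WT libraries were thus far apart at these peaks. The other 919 peaks took 17.1% and 16.9% of all listed-peak counts in KO and 13.1% and 13.8% in WT. With the 23 taken out of the library totals as well, the difference between the group means was 6.14 points. The 23 were wider, with a median of 793 bp against 428 bp for the other 919. Of the 23, 19 lay outside RefSeq genes and 4 inside, in Gm33838, Chl1, Cdk5rap2 and Lyz2, and 11 were on chromosome 9. Among the other 919, 73.0% overlapped a gene.

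The highest shared peak, also the widest at 2235 bp, was at chr14:19417300-19419534, 12208 bp from the predicted gene Gm9637. It had 1328 and 1204 counts in KO and 321 and 911 in WT, or levels of 2873 and 2834 against 752 and 416. The next, at chr2:98666158-98667341, had 1000 and 983 counts against 734 and 920, or levels of 2163 and 2314 against 1720 and 420. At both, the KO libraries lay above both WT libraries in level, and WT replicate 1 lay above WT replicate 2. A neighbour at chr2:98662168-98663056 had 853 and 808 counts against 407 and 704, and the highest density of all, 1412 per 100000 and kb. The peak at chr14:19415764-19417245 had 751 and 683 against 165 and 458, the peak at chr9:35305062-35305666 in Gm33838 had 453 and 445 against 234 and 392, and the peak at chr9:2999898-3000744 had 347 and 301 against 116 and 231. None of these 6 was among the peaks called in the fit described below. High counts were also seen on the unplaced contigs, where overlap with genes was not assessed. Their values are given in the closing section.

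Some of the high peaks were also close together. Another listed peak lay under 5 kb away for 8.92% of shared, 13.2% of KO-only and 7.38% of WT-only peaks. With a gap of at most 10 kb between shared peaks of any level, 38 of the 942 fell into 14 clusters. The largest, 9 peaks at chr9:3015133-3038382, held 1468 and 1335 counts in KO and 438 and 1002 in WT. A cluster of 4 at chr9:123927460-123936836, over the predicted gene Gm51701, had 102 and 93 against 60 and 285. That cluster had more counts in KO replicates 1 and 2 than in WT replicate 1, and its levels in WT replicate 2 rest on a library with several times their depth. The chromosome 2 peaks named above formed a cluster of 3 and those on chromosome 14 a cluster of 2. Pairs of peaks lay within or at Itsn1, which encodes an endocytic scaffold, Nfil3, a leucine zipper transcription factor, Creb5, another, Lpp, an adhesion protein, Ctbp2, a transcriptional co-repressor, and Slc2a1, the glucose transporter GLUT1. The Itsn1 pair had 29 and 19 counts against 35 and 135, and the Nfil3 pair 25 and 25 against 13 and 79.

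Shared peaks were wider and denser than peaks called in 1 genotype. Their median width was 429 bp, with quartiles of 375 and 521 bp and a range of 268 to 2235 bp, against 283 bp for KO-only and 373 bp for WT-only peaks. Their median density was 34.2 per 100000 and kb, against 29.8 and 19.5. Width and calling depend on the same reads, so these values describe what being called in both genotypes selects. Across the 942 peaks the Spearman correlation of width with mean level was 0.58, and it was 0.58 among the 919 peaks below 80 per 100000.

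Where the shared peaks lie was not used to choose them. A RefSeq gene body was overlapped by 675 of the 942 (71.7%), against 70.2% of KO-only peaks, 69.9% of WT-only peaks and 70.1% of all listed peaks on these chromosomes. The 267 outside genes had a median distance of 7051 bp to the nearest gene, and 13 were more than 50 kb away. Gene starts were nearer to shared peaks than to WT-only peaks. For the 908 shared peaks with a start site in the RefSeq promoter table the median distance from the peak's centre was 12303 bp, close to the 11068 bp of KO-only peaks, and it was 21188 bp for WT-only peaks. Within 10 kb of a start lay 404 shared peaks (44.5%), 47.6% of KO-only and 29.7% of WT-only peaks. Only 37 (4.07%) lay within 1 kb, and 72 (7.93%) lay beyond 100 kb. For 480 shared peaks in protein-coding genes of known strand, 34.6% lay in the first 25% of the gene's length, against 36.0% of KO-only and 26.1% of WT-only peaks. The genes differed in length, with medians of 63198 bp for shared, 57128 bp for KO-only and 90536 bp for WT-only peaks, and the part of gene length in these distances was not tested.

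**Figure D2:**
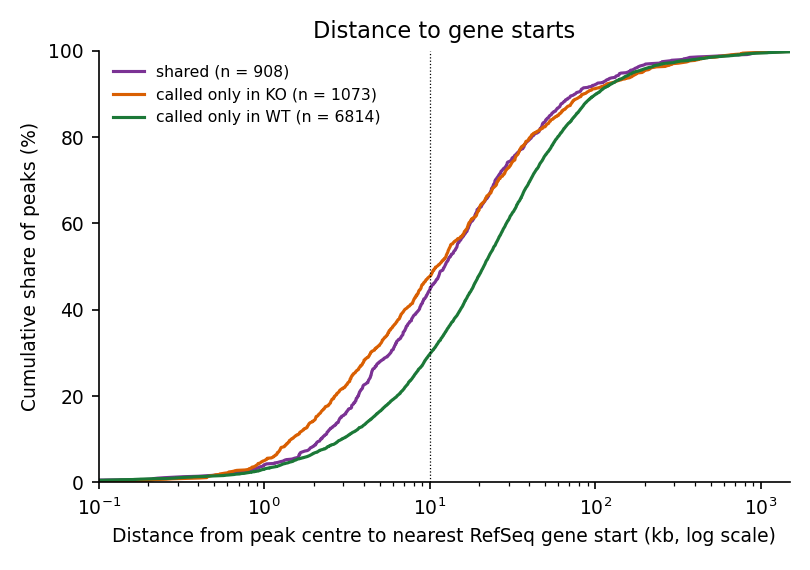
Curves give the cumulative share (%) of peaks against the distance from peak centre to the nearest RefSeq gene start (kb, log scale) for 908 shared, 1073 KO-only and 6814 WT-only peaks. At the dotted line, 10 kb, the curves stand at 44.5%, 47.6% and 29.7%.

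Over the chromosomes, shared peaks ranged from 2.56 per 10 Mb on chromosome 1 to 5.66 on chromosome 11 among the autosomes. Chromosome X held 5, or 0.293 per 10 Mb, and WT-only peaks were also sparse there at 2.81 per 10 Mb against 22.5 or more on each autosome. The shared peaks made up 7.35% of the 68 listed peaks on X. Chromosome 9, with the cluster near its start, had the highest shared part of its listed peaks, 13.5%, and chromosome 4 followed with 12.5%.

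In level, 406 of the 942 shared peaks (43.1%) had both KO libraries above both WT libraries, 91 (9.66%) had both below, and 445 overlapped. If the KO libraries are 1 library in 2 parts, these counts set 1 KO value against 2 WT values. Over all listed peaks these shares were 18.3% and 47.5%. The median level was 17.3 and 16.5 per 100000 in KO and 14.1 and 13.7 in WT. Because the WT-only peaks are part of every total, a library in which they take more of the counts has lower levels elsewhere.

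In the fit across all peaks with edgeR's quasi-likelihood test and Benjamini-Hochberg adjustment, 282 of the 942 shared peaks passed the filter on low counts. Of these 282, 203 had a mean of at least 10 counts in KO, and the others passed through their WT counts. Some of the 203 passed through their KO counts alone. Of the 282, 30 (10.6%) were called higher in KO at an adjusted p of 0.05, where 18% of all 859 tested peaks were, and none was called lower, where 1.75% were. None was lower at an unadjusted p under 0.05 either. DESeq2 called 16 higher of the 296 shared peaks to which it gave an adjusted p, where 11.2% of all 635 were, and 0 lower, where 0% of all were. The median log2 KO/WT over the tested shared peaks was 0.33, against -0.24 over all tested peaks, and single peaks ranged from -1.16 to 3.81. The same contrast chose the members, so nothing is read from these counts.

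The direction changed with the scaling and with how the KO libraries were entered. With libraries scaled on the shared peaks the median was -0.12, against -0.72 over all tested peaks, with 18 shared peaks higher and 7 lower, where 13.6% and 10.4% of all tested were. Scaled on the unplaced contigs the median was -2.28, against -2.85, with 0 higher and 204 lower, where 1.16% and 74.2% of all were. With TMM scaling and the KO libraries as 2 samples the median was -0.29, against -0.11, with 27 higher and 49 lower, where 31.7% and 31.5% of all were. With the KO libraries as 2 samples and WT replicate 1 left out, 47 were higher and 48 lower, where 27.3% and 29.7% of all were. With WT replicate 2 left out instead, 49 were higher and 6 lower, where 22.3% and 12.5% of all were. With KO as 1 sample and KO replicate 1 left out, 23 were higher and 3 lower, where 17% and 7.09% of all were. Fitted log2 values were above 0 for 66.0% of the shared peaks, for 43.6% when scaled on the shared peaks and for 3.9% when scaled on the contigs.

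Of the 30 called, 11 were among the 23 highest peaks and 19 among the others, 15 lay in genes and 15 outside, and 5 were in the cluster at the start of chromosome 9. Another fit left out every listed peak at or above 80 per 100000, the 23 shared ones and others outside the shared set. In that fit, 12 of 345 tested shared peaks were called higher and none lower, where 15% and 4.5% of all were. The part of the 23 alone was not tested.

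**Figure D3:**
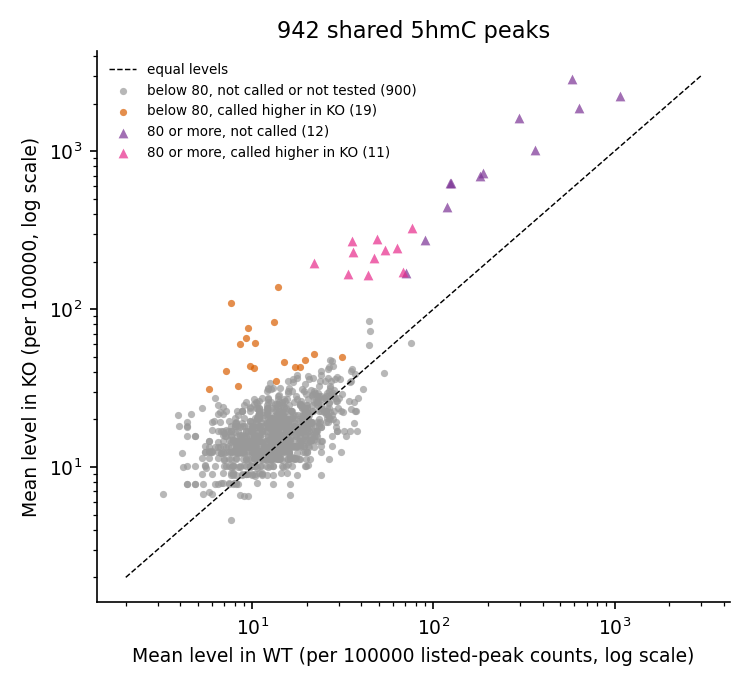
Each point is 1 of the 942 shared peaks, at its mean level in WT (x) and in KO (y), both per 100000 listed-peak counts on log scales, with triangles for peaks at or above 80. The 23 triangles all lie above the dashed line of equal levels, and 11 of them are among the 30 peaks called higher in KO with TMM scaling.

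The called peaks described first, those with the smallest p and given as a description, had few counts in WT replicate 1. The peak at chr9:24541893-24542300, 14747 bp from Dpy19l2, had 49 and 48 counts in KO and 3 and 18 in WT, or levels of 106 and 113 against 7.03 and 8.21. Its fitted log2 KO/WT was 3.81. The peak at chr12:3109845-3110272, 54637 bp from a predicted gene, had 63 and 60 against 6 and 30 counts and a log2 of 3.42. In Kctd16, which encodes an auxiliary subunit of GABA-B receptors, the peak at chr18:40307892-40308417 had 34 and 33 against 5 and 16 counts and a log2 of 3.30. At these 3 peaks the KO levels lay well above both WT levels. All 3 passed the filter on low counts only through KO, where they were high, so nothing is read from their log2 values. The others named by the same rule were chr12:74803742-74804640 with 81 and 93 against 8 and 55 counts, chr13:77438801-77439211 in 2210408I21Rik with 32 and 26 against 5 and 15, and chr2:181917284-181918057 in Gm40034 with 41 and 33 against 5 and 32. Their log2 values were 3.20, 3.14 and 2.63. The peaks in 2210408I21Rik and Gm40034 likewise passed the filter only through KO. With libraries scaled on the unplaced contigs the 6 peaks had log2 values of 0.04 to 1.16 and none was called.

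Several called peaks lay in genes with known roles in macrophages or in cell structure. In Lyz2, which encodes lysozyme and is a standard myeloid marker, the peak at chr10:117277377-117278252 lay at the end of the gene and had 89 and 64 counts in KO and 46 and 61 in WT. Its levels were 193 and 151 against 108 and 27.8, so WT replicate 1 stood nearer to KO than to the other WT library, and its log2 was 1.64. In Cdk5rap2, a centrosomal protein, counts were 118 and 120 against 16 and 74, and in Chl1, a neural adhesion molecule, 97 and 117 against 39 and 77. In Fth1, the ferritin heavy chain that stores iron, they were 23 and 21 against 18 and 44, with a log2 of 1.10. In Rapgef1, an exchange factor for Rap GTPases, they were 21 and 17 against 8 and 39, with a log2 of 1.33. In Basp1 the values were 21 and 20 against 6 and 35, and in Selenon, an endoplasmic reticulum selenoprotein, 25 and 21 against 8 and 55. None of these genes was called in the edgeR RNA test, where 0.0135% of all 14851 tested genes were. Lyz2 RNA, for example, stood at 8014 and 11917 CPM in KO and 13082, 8868 and 9783 CPM in WT. Chl1 and Kctd16 had 0 RNA counts in both KO libraries and at most 0.0355 CPM in WT. The genes of this paragraph other than Lyz2 and Rapgef1 were chosen after their values were seen.

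**Figure D4:**
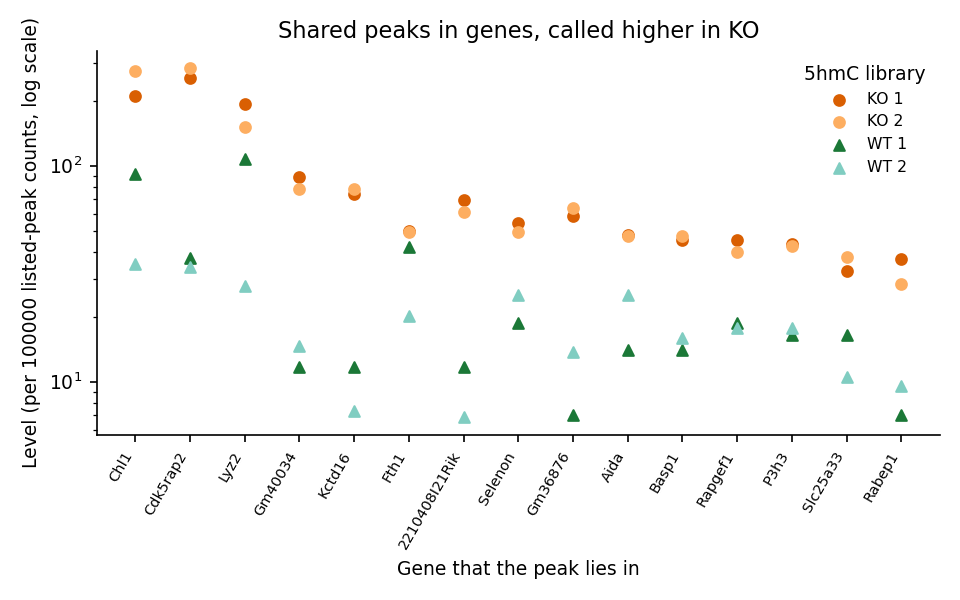
Points show the level (per 100000 listed-peak counts, log scale) in each of the 4 5hmC libraries for the 15 called peaks that lie in a gene, ordered by mean level. Both KO libraries lie above both WT libraries at every peak, and at Lyz2 the WT libraries stand apart at 108 and 27.8.

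Only 20 of the 282 tested shared peaks had at least 20 counts in every library. Of the 6 among these 20 with a log2 closest to 0, 5 had fitted values from 1.29 to 1.76. The called Lyz2 peak is 1 of the 5, so they are not level peaks. Over all 282, 96 had a fitted log2 below 0. One of the 5 lay upstream of Pak3, at chrX:143482857-143483270, with 78 and 73 counts in KO and 48 and 63 in WT, levels of 169 and 172 against 112 and 28.8, and a log2 of 1.58. The sixth was nearer to level: at chrX:169980798-169981254 in Mid1, a microtubule-associated ubiquitin ligase gene, counts were 29 and 25 in KO and 37 and 140 in WT, with levels of 62.7 and 58.8 against 86.7 and 63.9 and a log2 of -0.13. The lowest fitted values, chosen after they were seen, were at Oxr1, Tirap, Gfpt1 and Rptor. Tirap, an adaptor of Toll-like receptor signalling, had 5 and 5 counts against 12 and 55, a log2 of -1.10. Gfpt1, the first enzyme of hexosamine synthesis, had 8 and 6 against 13 and 78 (log2 -1.04), and Rptor, a subunit of mTORC1, had 8 and 7 against 15 and 75 (log2 -0.84). Each of these 3 had both KO levels below both WT levels. Their KO counts were few and they passed the filter through their WT counts, where they were high. Nothing is therefore read from their log2 values.

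The shared peaks overlapped 683 RefSeq genes, of which 574 were protein coding and 102 long non-coding. A single shared peak was found in 652 of them, 2 in 27 and 3 in 4. WT-only peaks lay in 275 (40.3%) of the 683 genes as well, KO-only peaks in 59 (8.64%), and 384 had neither. The genes with 3 were Bach2, Dapk1, Itsn1 and A930011G23Rik. Bach2 encodes a repressor best known from B cells, and its peaks had 6 and 4 against 5 and 30 counts, 8 and 6 against 5 and 35, and 13 and 12 against 8 and 35. Only the last, near the 3′ end of the gene, had both KO levels above both WT levels, and it was not called (log2 0.79). Bach2 RNA was low, at 0.374 and 1.06 CPM in KO and 1.59, 1.67 and 1.10 CPM in WT. Dapk1, a calmodulin-regulated death-associated kinase, had peaks of 7 and 6 against 5 and 37 counts, 7 and 5 against 7 and 40, and 4 and 5 against 6 and 33. Its RNA was 37.5 and 41.2 CPM in KO and 82.6, 87.5 and 62.2 CPM in WT, without overlap and with an adjusted p of 0.238 in edgeR. Itsn1 had peaks of 19 and 9 against 21 and 72 counts, 10 and 10 against 14 and 63, and 8 and 4 against 4 and 16. Its RNA overlapped, at 450 and 307 CPM against 100, 299 and 345 CPM.

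Pairs of shared peaks were found in Akap9, a scaffold for protein kinase A, Ano6, a phospholipid scramblase, Cd200r3, a CD200 receptor family member, Cpeb3, an mRNA-binding protein, and Creb5. The Ano6 peaks had 12 and 9 against 12 and 69 counts, and 4 and 10 against 6 and 19. In Cd200r3 one peak had 3 and 3 against 0 and 14 counts and the other 4 and 3 against 5 and 31. Neither gene's RNA separated the genotypes: Ano6 stood at 145 to 186 CPM in all 5 libraries and Cd200r3 at 0 to 0.436 CPM.

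Shared peaks were then read over gene lists, which were chosen with earlier results of these data known and not matched for gene length. The counts are given as a description. Over all protein-coding RefSeq genes, 2.65% of 21631 held a shared peak and 16.8% any listed peak. In a list of 23 RUNX and myeloid transcription factors, 15 held any peak and 6 a shared one: Runx1, Runx2, Irf5, Bach1, Bach2 and Nr4a1. RUNX1 is a master regulator of blood formation that the study's title names as a partner of TET2, and its peak at chr16:92635428-92635785 had 6 and 6 counts in KO and 3 and 28 in WT. Runx1 RNA was 114 and 81.5 CPM in KO and 117, 154 and 94.9 CPM in WT, with overlap. Runx2, the osteoblast transcription factor, had 7 and 11 counts against 6 and 29. In Irf5, an interferon regulatory factor of inflammatory macrophages, the counts were 7 and 11 against 4 and 25, and in Bach1, a haem-sensing repressor, 8 and 7 against 6 and 33. Most of these peaks did not pass the filter on low counts and were not tested.

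Among 20 regulators of small GTPases, 19 held any peak and 8 a shared one, among them Dock8, Arhgap15, Arhgap25, Tiam1 and Rapgef1. This list too was chosen with earlier results known. The 8 genes ran from 74718 bp (Arhgap25) to 774669 bp (Arhgap26) in length, and the part of gene length was not tested. Of the 8 peaks 3 were tested, in Rapgef1, Arhgap25 and Arhgap26, and of these the Rapgef1 peak, which lay 1620 bp from the gene's start, was called. Arhgap25, a Rac-directed GTPase-activating protein of phagocytes, had 10 and 10 counts against 14 and 52 and a log2 of -0.10. Among 20 macrophage identity genes, 8 held any peak and 2 a shared one, in Lyz2 and Cd163, the haemoglobin scavenger receptor, whose peak had 8 and 5 counts against 5 and 29. Among 23 osteoclast genes, 9 held any peak and only Nfatc1, the main transcription factor of osteoclast formation, held a shared one, with 10 and 6 counts against 4 and 33. Among 21 genes of TET enzymes and DNA methylation, 7 held any peak and only Mbd2, a reader of methylated DNA, held a shared one, with 9 and 7 against 5 and 18. No shared peak lay in 25 inflammatory genes, of which 5 held any peak, or in 20 NF-kappaB pathway genes, of which 9 did. The lists of B cell, T and NK cell, granulocyte, stromal and megakaryocyte or erythroid markers held 5 genes with any peak and 0 with a shared one. In none of the 12 lists did a gene pass the edgeR RNA test, which only 0.0135% of all 14851 tested genes passed.

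RNA was independent of how the peaks were chosen. Total RNA counts were 16053426 and 25479447 in KO and 17569441, 51355576 and 56394358 in WT. Most genes with a shared peak were transcribed. Of 563 protein-coding genes with a shared peak that matched the RNA tables, 508 (90.2%) had a mean of at least 1 CPM, against 87.7% with only KO-only peaks, 84.7% with only WT-only peaks, 95.1% with both of these kinds but no shared peak, and 48.6% of 16903 with no listed peak. In the single libraries the share for shared-peak genes ran from 87.7% to 90.4%, and for genes with no peak from 43.9% to 50.1%, the highest in both cases in WT replicate 3. Genes with a shared peak had a median length of 61.1 kb and those without a listed peak 14.4 kb. The gap was present at every length: 90.6% against 35.4% up to 10 kb, 87.3% against 59.8% from 10 to 30 kb, 89.5% against 59.4% from 30 to 100 kb, and 93.0% against 42.7% above 100 kb. CPM values are not divided by transcript length.

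**Figure D5:**
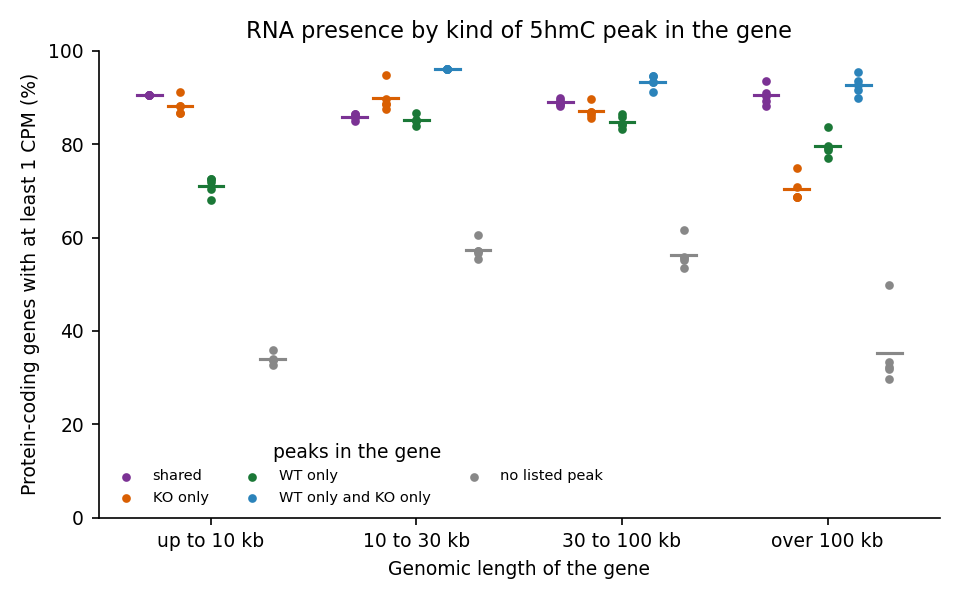
Points give, for each of the 5 RNA libraries, the share (%) of protein-coding genes with at least 1 CPM by gene length and by the kind of 5hmC peak in the gene, and lines give the mean of the 5. Genes with a shared peak lie well above genes with no listed peak in all 4 length classes. The points run from 84.9% to 93.5% for genes with a shared peak and from 29.6% to 61.6% for genes with no listed peak.

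Between genotypes, the RNA of genes with a shared peak was set beside that of all tested genes. Of 603 matched genes 526 were tested, and edgeR's quasi-likelihood test called none at an adjusted p of 0.05, where 0.0135% of all 14851 tested genes were called. At an unadjusted p under 0.05, 36 (6.84%) were higher in KO and 58 (11.0%) lower, against 5.95% and 7.86% of all tested genes. DESeq2 called 21 higher (3.85%) and 37 lower (6.79%) of 545 with an adjusted p, against 3.04% and 4.36% of all. All KO libraries lay above all WT libraries for 106 (20.2%) and below for 124 (23.6%), against 17.8% and 17.4% of all tested genes. The median log2 KO/WT was -0.02, against -0.03 over all tested genes.

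The genes with the smallest unadjusted p are given with their values, all without overlap between genotypes and none passing in edgeR, with adjusted p from 0.148 to 0.206. DESeq2 called all 10 of them. Kcna2, a voltage-gated potassium channel, stood at 12.8 and 3.53 CPM in KO and at 0.171, 0.136 and 0.124 CPM in WT. Gfpt1 had 123 and 114 CPM in KO and 40.2, 66.0 and 59.6 CPM in WT, a log2 of 1.06 ± 0.20 (SE). Its 5hmC peak was named above, after the values were seen, for a low fitted log2 KO/WT. That peak had few KO counts and was tested through its WT counts, so nothing is read from its log2 beside that of the RNA. Cyfip1, a subunit of the WAVE actin-nucleation complex, had 1342 and 937 CPM against 366, 501 and 475 CPM, and its 2 shared peaks had 15 and 11 counts in KO against 8 and 54 in WT, and 7 and 8 against 8 and 38. Rapgef2, another Rap exchange factor, had 210 and 143 CPM against 49.9, 83.7 and 74.99 CPM, and Utp11, a ribosome biogenesis factor, 60.8 and 57.1 CPM against 22.2, 35.8 and 33.2 CPM. These 5 genes were higher in both KO libraries than in all 3 WT libraries.

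In the other direction, Il6st, which encodes gp130, the shared receptor subunit of the interleukin-6 family, had 72.2 and 83.6 CPM in KO and 303, 227 and 251 CPM in WT, a log2 of -1.84 ± 0.32 (SE). Its shared peak, at the end of the gene (chr13:112506671-112507281), had 8 and 12 counts in KO and 13 and 36 in WT. Lhfpl2 had 61.3 and 81.8 CPM against 598, 311 and 574 CPM, and its peak 4 and 3 counts against 3 and 19. Aig1, a hydrolase of fatty acid esters of hydroxy fatty acids, had 1.68 and 4.16 CPM against 35.0, 16.6 and 52.8 CPM, and Abca9, a lipid transporter family member, 1.495 and 4.43 CPM against 41.1, 90.2 and 22.6 CPM. Cped1 had 0.623 and 0.785 CPM against 5.58, 3.23 and 4.57 CPM. Fblim1, whose promoter is printed above, had 4.73 and 0.746 CPM in KO and 120, 48.9 and 47.4 CPM in WT, a log2 of -4.89 with an adjusted p of 0.209 in edgeR. Arap1 overlapped, at 753 and 457 CPM against 453, 463 and 261 CPM, and so did Nt5c2, at 42.7 and 43.6 CPM against 64.7, 55.7 and 36.5 CPM. Fblim1, Arap1 and Nt5c2 are named here for their promoters.

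For 155 tested shared peaks in a tested gene, the fitted 5hmC log2 and the gene's RNA log2 had a Pearson r of -0.03 and a Spearman correlation of -0.06. These are across peaks, which are not independent replicates, and the values of each assay share 1 set of libraries.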

How the data were processed

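The authors deposited whole-number read counts, per peak for 5hmC and per gene for RNA. Build GRCm38 and the tools MACS2, BWA, STAR, HTSeq, Trim Galore and CASAVA 1.4 come from the submitters' processing notes, without their roles. Not given in the sources used here are the peak threshold, whether starts count from 0, strand use and how duplicates were handled. Numbers in the peak names run to 12299 for KO and 56360 for WT, while 2107 and 8001 such names are listed, so the tables hold only part of the calls.

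Genes and start sites came from RefSeq tables on GRCm38.p6, and 34 shared peaks on chromosome 18 had no start site in them. RNA rows were matched by symbol. All 9151 peaks, or all genes, were fitted with edgeR 4.0.16 (R 4.3.3, TMM, filterByExpr, quasi-likelihood test, Benjamini-Hochberg adjusted p under 0.05). For 5hmC the mean of the KO counts was rounded to whole numbers, which leaves 3 samples, so the spread comes from the 2 WT libraries alone. DESeq2 1.42.0, other scalings, filters and samples were alternatives. The fits were also run on simulated counts with independent noise of 1 common spread per assay, and nothing is read from that run. Places, levels and shares were counted in Python 3.11.15.

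Peaks named were the 6 highest in level, the 6 densest, the 5 widest, the 6 called with the smallest p and the 6 tested peaks nearest to a log2 of 0 with at least 20 counts in every library. Genes named were the 8 with the most shared peaks, up to 5 per list, and the 5 per direction with the smallest unadjusted RNA p, leaving out predicted genes. The members and lists were chosen with earlier results of these data known.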

Additional observations from a re-analysis of the deposited data

Results flagged for a closer look

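Peaks called in both genotypes but off chromosomes 1 to 19 and X are not among the 942 shared peaks, but they were part of the library totals and of the fit across all listed peaks. The peak on the knock-in sequence had 233 and 202 counts in KO and 6 and 39 in WT, and its mean KO level of 490 per 100000 (504 and 475) stood above the WT levels of 14.1 and 17.8. RNA of a knock-in feature was at 0 counts in all WT libraries. The 12 peaks on unplaced contigs, summed, had a mean KO level of 4381 per 100000 (4419 and 4342), above the WT levels of 1209 and 647. The peak on chromosome Y had a mean KO level of 29.3 per 100000 (30.3 and 28.2), above 16.4 and 20.5 in WT. All 3 are given because they lie outside the shared peaks described and exceed the WT libraries. The results with all peaks off the placed chromosomes left out are in the next section.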

How the results depend on the processing

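Shares of all tested peaks are given beside each count. Shared 5hmC peaks called higher in KO (30 of 282, all 18%) became 180 of 888 with the KO counts summed (all 11.3%), 19 of 214 with the replicate block (all 26.9%), 16 of 296 with DESeq2 (all 11.2%), 54 of 942 with no filter (all 4.47%), 18 scaled on the shared peaks (all 13.6%), 0 scaled on the unplaced contigs (all 1.16%) and 12 of 345 without peaks of 80 or more per 100000 (all 15%). Those called lower (0, all 1.75%) became 49 of 214 with the KO libraries as 2 samples (all 31.5%), 36 with the replicate block (all 26.9%), 3 of 321 with placed chromosomes only (all 5.48%), 7 scaled on the shared peaks (all 10.4%) and 204 scaled on the contigs (all 74.2%). The median log2 (0.33) became -0.29 with the KO libraries as 2 samples, 0.75 summed, -0.28 with the replicate block, 0.79 with DESeq2, 0.53 with RLE scaling, 0.73 with no filter, 0.22 with placed chromosomes only, -0.12 scaled on the shared peaks, -2.28 scaled on the contigs and 0.23 without the high peaks. Leaving out 1 KO library gave 23 to 28 higher, 0 to 3 lower and medians of 0.35 to 0.37. Leaving out 1 WT library needed the KO libraries as 2 samples, and these 2 changes together gave 47 to 49 higher, 6 to 48 lower and medians of -9.4e-07 to 0.31. The scalings on shared peaks and on contigs and the runs without the high peaks were chosen after seeing the data. The cause of these changes was not tested. Same-numbered libraries did not deviate together (r 0.02 in 5hmC, -0.05 in RNA). For 5hmC this r is uninformative, because the gap between the KO counts held nothing beyond counting error (chi-square per degree of freedom 0.575). For RNA it rests on replicates 1 and 2 alone. Whether the numbers are a pairing was therefore not decided. The 14.9-point difference in count share became 17.3 over placed peaks, 11.4 over the 79 shared peaks with at least 10 counts in every library and 6.14 without the high peaks. Shared peaks in genes were 78.0% with 2 kb added on both sides. DESeq2 called 58 RNA genes where edgeR called 0, and the replicate block called 0 too. For single named peaks and genes, 179 values kept direction and side of the threshold, 10 passed only in DESeq2 and 6 were lost, all when scaled on the contigs. The filter on low counts left 282 of the 942 shared peaks, and total library depth is unknown.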
